A study of Mus musculus with 33 samples.

Results

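The BCL2 family is the set of proteins that decide whether a stressed cell opens its mitochondria and dies by apoptosis. Its expression was followed here through 10 genes, picked by name from what is known of the family. The choice was made with earlier results of these data known. The genes were the death-opposing Bcl2, Bcl2l1 (which encodes Bcl-xL), Bcl2l2 (Bcl-w) and Mcl1, the pore-forming effector Bak1, and the BH3-only genes Bid, Bad, Bcl2l11 (Bim), Bik and Bmf. All 10 were among the 37991 gene identifiers counted in each of 33 libraries, and all 10 passed the filter on low counts in every comparison. The study asked what the loss of Neil1, Neil2 or Apex1, enzymes that act in base excision repair of DNA, does to mouse embryonic stem cells (mESCs) and their differentiation, and measured poly(A) RNA by sequencing.

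E14TG2a, an established line of mouse embryonic stem cells, was the parent of all clones. The control group held clones 1, 4 and 7, which had received CRISPR plasmids without a targeting insert. The Neil1 mutants were clones 7, 9 and 11 and the Neil2 mutants clones 1, 11 and 14, each numbered within its own genotype. The Apex1 mutant was a single clone (46) sequenced in technical duplicates, so that nothing measured in it speaks for other Apex1 clones. Each clone was sampled as mESCs, as embryoid bodies after 8 days of differentiation (EBs), and as EBs that received 5 µM all-trans retinoic acid from day 4 (EBs + RA), a vitamin A derivative that drives neural differentiation. With 3 clones a group, p-values measure the spread between clones of 1 parental line.

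In a healthy cell, BCL2, Bcl-xL, Bcl-w and MCL1 hold BAK and BAX in check at the outer mitochondrial membrane. BH3-only proteins carry the signal of damage or of missing growth factors: through a short helix, the BH3 segment, they occupy the groove of the death-opposing proteins or engage BAK and BAX directly, which then form pores that release cytochrome c. MCL1 protein is short-lived and is needed in the early embryo, while BCL2 is known for sustaining neurons and blood cells.

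The BH3 segment is what these proteins share, and the coding stretches for its core are shown to let the family be seen side by side. Each line gives 27 coding bases read from the NCBIM37 (mm9) genome in the sense of the gene, and the capitals mark codons 1, 5 and 6, that is a leucine or methionine and then a small residue followed by aspartate.
Bcl2, chr1:108609152-108609178, minus strand, exon 1 of 2: CTCcgccgggctGGGGATgacttctct
Bcl2l1, chr2:152655433-152655459, minus strand, exon 2 of 3: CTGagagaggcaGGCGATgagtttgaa
Bcl2l2, chr14:55503354-55503380, plus strand, exon 3 of 4: ATGcgggctgctGGAGACgagtttgag
Mcl1, chr3:95463359-95463385, plus strand, exon 2 of 4: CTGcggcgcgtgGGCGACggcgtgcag
Bak1, chr17:27159476-27159502, minus strand, exon 4 of 6: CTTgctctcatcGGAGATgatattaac
Bid, chr6:120847307-120847333, minus strand, exon 4 of 7: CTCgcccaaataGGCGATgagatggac
Bad, chr19:7025282-7025308, plus strand, exon 3 of 4: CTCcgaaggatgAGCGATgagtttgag
Bcl2l11, chr2:127972886-127972912, plus strand, exon 3 of 4: CTGcggcggatcGGAGACgagttcaac
Bik, chr15:83373514-83373540, plus strand, exon 3 of 5: CTGgcctgcatcGGCGATgagatggac
Bmf, chr2:118370836-118370862, minus strand, exon 4 of 5: CTTcagtgtattGCAGACcagttccat
The stretches were found by a search for these residues, so that the capitals are shared by construction. Over the whole stretch, Bid and Bik were the most alike pair, with 22 of 27 bases in common (81.5%), and Bcl2l1 and Bmf the least alike, with 10 of 27 (37.0%). Of 36 coding transcripts annotated for the members, 28 held exactly 1 such stretch.

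Libraries held between 21523742 and 48350904 counts on genes, with a median of 26720028. The deletions removed part of each gene (exon 2 of Neil1 and of Neil2, exon 5 of Apex1), so whole-gene counts do not check them: in CPM (counts scaled to a common library size, here after TMM normalization) Neil1 was at 5.80 to 9.85 in controls and 1.38 to 31.6 in Neil1 mutants, Neil2 at 3.40 to 15.2 in controls and 4.86 to 17.95 in Neil2 mutants, and Apex1, which overlaps Tmem55b on the other strand, at 7.76 to 17.8 in controls and 56.5 to 86.2 in the mutant. In the mESC library of Neil1 clone 11, 266 of 402 expressed X-linked genes were below 0.1 CPM, against at most 1 in any other library. No member lies on the X chromosome. The 8 pluripotency markers summed to between 4172 and 5849 CPM in all mESC libraries. For bulk RNA such as this, fewer cells of a type and less RNA per cell cannot be told apart.

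In control cells Mcl1 was by far the most abundant member and Bcl2 the least abundant at every stage. The comparison across genes uses RPKM, the CPM divided by the kilobases of exon, which allows for gene length. This length includes bases shared with another gene, where reads that fall on both genes are not counted. Such bases were 25.8% of Bad, 17.7% of Bid, 14.8% of Bak1, 13.3% of Bcl2l2 and 7.8% of Bcl2. The RPKM of these members may be too low, and close ranks are uncertain. In control mESCs Mcl1 stood at 193 ± 9.02 RPKM (SD, n = 3), Bak1 at 22.1 ± 2.86, Bid at 9.58 ± 0.310 and Bcl2l1 at 8.25 ± 2.08. Bad (5.36), Bmf (4.94), Bcl2l11 (4.51), Bik (3.73) and Bcl2l2 (2.20) followed, each with a range over clones that overlapped that of its neighbour, and Bcl2 came last and apart at 0.0955 ± 0.0477 RPKM. In EBs the same genes held the first and the last ranks, with Mcl1 at 109 RPKM, Bak1 at 27.3 and Bcl2 at 0.411. In EBs + RA Mcl1 was at 88.3 RPKM, Bak1 at 28.3, Bcl2l1 at 18.1 and Bcl2 at 1.65, and the middle of the order (Bmf 10.7, Bad 10.5, Bcl2l11 8.75, Bik 6.65, Bid 6.27) again had neighbours that overlapped. By these values Bid held rank 4 in EBs and rank 8 in EBs + RA. Its range overlapped that of Bcl2l1 in EBs and that of Bik in EBs + RA, so neither rank is firm.

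**Figure D1:**
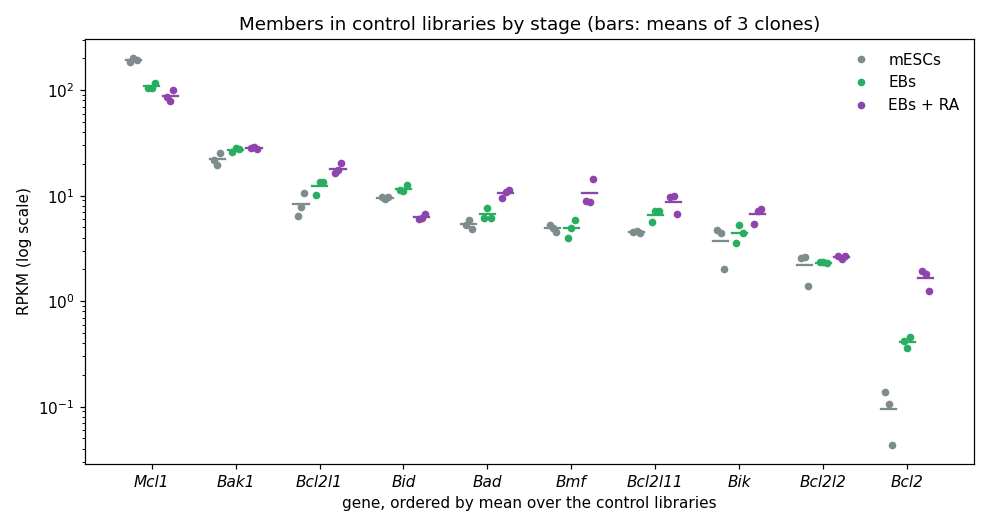
RPKM (log scale) of the 10 members in control libraries, 1 point per clone and a bar at the mean of 3 clones, for mESCs, EBs and EBs + RA. Mcl1 lies highest at each stage and Bcl2 lowest, with Bcl2 climbing from 0.0955 to 1.65 RPKM.

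In control cells Bcl2 was higher in EBs than in mESCs, and higher in EBs + RA than in EBs. Both kinds of EBs had 8 days of differentiation, so the second comparison is one of treatment and not of time. Below, EBs against mESCs is called the first step and EBs + RA against EBs the second. Its CPM was 0.989, 0.757 and 0.314 in mESCs (clones 1, 4 and 7), 2.98, 2.61 and 3.28 in EBs, and 13.7, 12.97 and 8.91 in EBs + RA. The 3 stages did not overlap, although the mESC values rest on only 8 to 27 counts a library. Of genes averaging 10 counts or more, 27.3% had all control EBs above all control mESCs and 30.7% all EBs + RA above all EBs. A gene was called changed where the log2 fold change exceeded 0.5 in size and the Benjamini-Hochberg adjusted p (FDR) of edgeR's quasi-likelihood test was under 0.1. Bcl2 was higher in EBs than in mESCs by a log2 fold change of 2.08 ± 0.39 (SE, edgeR FDR 0.00278), and in EBs + RA than in EBs by 1.99 ± 0.22 (edgeR FDR 0.000128).

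Mcl1 went the other way at the first step. It was at 639, 701 and 678 CPM in control mESCs, at 365, 364 and 411 in EBs, and at 298, 273 and 352 in EBs + RA. Every EB value lay below every mESC value, which held for 25.4% of genes, and the log2 fold change was -0.84 ± 0.11 (edgeR FDR 0.00047). Between EBs and EBs + RA the difference of -0.31 passed the FDR limit (edgeR FDR 0.0501) but was under the fold limit. Every EBs + RA value lay below every EB value, which held for 29% of genes.

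In all, 4 of 10 members were called between mESCs and EBs, where 38.7% of the tested genes were, and 6 of 10 between EBs and EBs + RA, where 44.1% were. The other called members of the first step were Bcl2l1 (log2 fold change 0.56 ± 0.19, edgeR FDR 0.0396) and Bcl2l11, which encodes the strong activator Bim (0.53 ± 0.12, edgeR FDR 0.00785). Those of the second step were Bcl2l1 (0.54 ± 0.14, edgeR FDR 0.01), Bad (0.65 ± 0.15, edgeR FDR 0.00657), Bik (0.59 ± 0.23, edgeR FDR 0.0638), Bmf (1.10 ± 0.23, edgeR FDR 0.00418) and Bid, the single called member that fell (-0.90 ± 0.11, edgeR FDR 0.000223). Bid, the BH3-only protein that death receptors activate through caspase cleavage, was at 40.0, 39.7 and 44.4 CPM in EBs and at 21.4, 21.7 and 23.7 in EBs + RA, without overlap between the stages, as for 29% of genes in this direction. Its exons share 17.7% of their bases with Bcl2l13 on the other strand, which was at a control mean of 67.0 CPM in EBs and 80.9 in EBs + RA, and the part of this overlap was not tested. Bmf, a BH3-only protein linked to loss of attachment, was at 20.9, 26.1 and 31.1 CPM in EBs and at 46.8, 45.7 and 75.3 in EBs + RA, again without overlap. The median log2 fold change of the members was 0.27 at the first step (-0.02 over all genes) and 0.46 at the second (0.01 over all genes).

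Several of these calls were lost when 1 library was left out. These fits did not pair the 2 stages of a clone, although EBs and EBs + RA of a control clone deviated together (r = 0.277 to 0.357). The losses therefore apply to the unpaired fits only. The Bcl2l1 call at the first step was lost without the mESC library of control clone 1 or the EB library of clone 4 or 7 (edgeR FDR 0.105 to 0.123), and that of Bcl2l11 without the EB library of clone 4 or 7 (both 0.49, just under the fold limit). At the second step Bik was lost without the EB library of clone 1 or 7 or the EBs + RA library of clone 4 or 7 (0.44 to 0.58, edgeR FDR 0.110 to 0.210), and Bcl2l1 without the EB library of clone 1 or the EBs + RA library of clone 7 (0.42 and 0.43). The Bad exons share 25.8% of their bases with Gpr137 on the other strand, and the library kit does not mark strand: Gpr137 rose alongside, from a control mean of 10.4 CPM in EBs to 21.99 in EBs + RA, and its part in the Bad result was not tested.

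**Figure D2:**
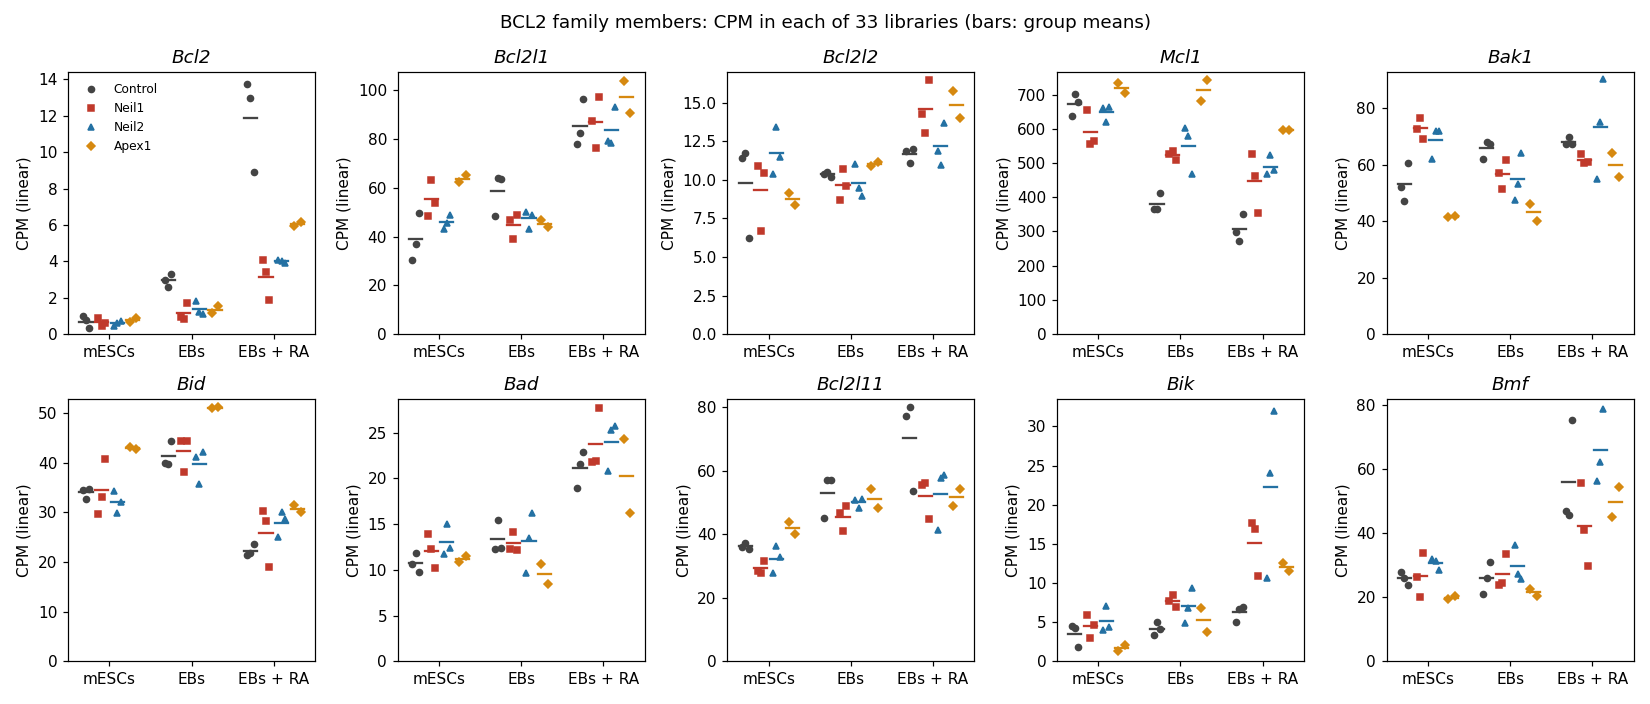
CPM (linear scale, from 0) of each member in all 33 libraries by stage, with 1 point per library and a bar at the group mean (3 clones, or the 2 technical duplicates for Apex1). Bcl2 in the EBs + RA panel column shows control clones at 8.91 to 13.7 CPM and every mutant library at 6.15 CPM or less.

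In undifferentiated mESCs no member was called in any mutant. Of the tested genes 1.82% were called in Neil1 mutants, 1.83% in Neil2 mutants and 0% in the Apex1 mutant. For Apex1 the 0 of 16695 genes came with 2175 at an unadjusted p under 0.05, and DESeq2 called 427. Bcl2 was at 0.897, 0.421 and 0.627 CPM in Neil1 clones 7, 9 and 11, at 0.462, 0.594 and 0.733 in Neil2 clones 1, 11 and 14, and at 0.690 and 0.875 in the Apex1 duplicates, all inside the control range. Its log2 fold changes of -0.10 ± 0.49 (edgeR FDR 0.949), -0.22 ± 0.45 (0.858) and 0.15 ± 0.67 (0.932) had errors larger than themselves, at 8 to 27 counts a library.

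Bak1, whose product builds the mitochondrial pore, did not overlap the controls in mESCs of any mutant. It was at 51.9, 47.1 and 60.7 CPM in controls, at 72.6, 76.7 and 69.2 in Neil1 mutants, at 62.1, 71.9 and 71.7 in Neil2 mutants and at 41.4 and 41.8 in the Apex1 duplicates. Neil1 and Neil2 mutants lay above all controls and Apex1 below them. Of genes averaging 10 counts or more, 11.1% lay above all controls in Neil1, 13.4% in Neil2 and 27.1% in Apex1 mESCs, and 10%, 9.12% and 24% lay below them. For Bak1 the differences of 0.44 ± 0.14 (edgeR FDR 0.201), 0.34 ± 0.13 (0.268) and -0.38 ± 0.22 (0.485) did not pass. Without control clone 7 the Neil1 comparison called Bak1 (0.54, edgeR FDR 0.0533) and Bcl2l1 (0.70, edgeR FDR 0.0496), and the number of genes called went from 283 to 2011.

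In EBs Bcl2 was lower in all 3 mutants. It was at 2.98, 2.61 and 3.28 CPM in controls, at 0.951, 0.813 and 1.71 in Neil1 mutants, at 1.85, 1.21 and 1.13 in Neil2 mutants and at 1.18 and 1.52 in the Apex1 duplicates. No mutant library reached the lowest control, a pattern that 22.9% of genes averaging 10 counts or more showed in Neil1, 17.4% in Neil2 and 28.9% in Apex1 EBs. The log2 fold changes were -1.33 ± 0.31 for Neil1 (edgeR FDR 0.00836), -1.06 ± 0.29 for Neil2 (edgeR FDR 0.0472) and -1.13 ± 0.35 for Apex1 (edgeR FDR 0.0645). The 3 comparisons use the same control libraries and are not independent of each other.

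Mcl1 was higher in the same EBs. Against controls at 365, 364 and 411 CPM, it was at 528, 536 and 509 in Neil1 mutants, at 601, 580 and 469 in Neil2 mutants and at 683 and 743 in the Apex1 duplicates. All mutant libraries lay above all controls, as they did for 21.2% of genes in Neil1, 15.8% in Neil2 and 29.6% in Apex1. It was called in Neil2 (0.55 ± 0.14, edgeR FDR 0.0372) and Apex1 mutants (0.90 ± 0.12, edgeR FDR 0.00224), and in Neil1 mutants stayed under the fold limit at 0.46 (edgeR FDR 0.00165).

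Bik, a BH3-only protein of the endoplasmic reticulum, was at 3.32, 5.02 and 4.16 CPM in control EBs, at 7.76, 8.54 and 7.00 in Neil1 mutants, at 4.91, 6.86 and 9.37 in Neil2 mutants and at 6.81 and 3.81 in the Apex1 duplicates. The Neil1 clones all lay above the controls and the other groups overlapped them. It rose in Neil1 mutants (0.91 ± 0.21, edgeR FDR 0.00766) and was not called in Neil2 mutants (0.77, edgeR FDR 0.119) or in Apex1.

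Bak1 fell in the Apex1 EBs. It was at 62.1, 68.0 and 67.3 CPM in controls, at 56.9, 51.4 and 61.7 in Neil1 mutants, at 47.4, 53.0 and 64.1 in Neil2 mutants and at 46.1 and 40.2 in the Apex1 duplicates. Both Apex1 libraries lay well below the controls and below every Neil1 library, with a log2 fold change of -0.62 ± 0.13 (edgeR FDR 0.0171). The differences in Neil1 mutants (-0.21 ± 0.10, edgeR FDR 0.125) and Neil2 mutants (-0.25 ± 0.13, edgeR FDR 0.278) were not called. Bak1 shares 14.8% of its exon bases with Ggnbp1 on the other strand, which was at 7.40 to 10.1 CPM in control EBs and 14.03 to 14.5 in the Apex1 duplicates. The part of this overlap in the Bak1 result was not tested.

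The EB comparisons thus called 2 of 10 members in Neil1 mutants, where 23.5% of tested genes were called, 2 in Neil2 mutants (16.3%) and 3 in the Apex1 mutant (16.6%). These shares are near the background, and the members' median log2 fold changes of -0.07, -0.06 and -0.17 lay beside medians of -0.00058, 0.02 and -0.01 over all genes. Of the members not called in any mutant's EBs, Bcl2l1 was at 48.5 to 63.9 CPM in controls and 39.1 to 50.1 in mutants, Bcl2l11 at 45.1 to 57.2 and 41.0 to 54.1, Bid at 39.7 to 44.4 and 35.6 to 51.1, Bmf at 20.9 to 31.1 and 20.5 to 36.3, Bad at 12.3 to 15.4 and 8.42 to 16.3, and Bcl2l2 at 10.2 to 10.5 and 8.71 to 11.2. With the mutants pooled, each of these ranges overlapped that of the controls, but both Apex1 libraries lay below all controls for Bcl2l1 and Bad and above them for Bcl2l2 and Bid. Bcl2l1 in Neil1 EBs passed the FDR limit (0.0464) with a difference of -0.39, under the fold limit, and was called without control clone 1 (-0.51, edgeR FDR 0.0137).

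The Neil1 calls of Bcl2 and Bik in EBs held without any 1 library. In Neil2 EBs Bcl2 was lost without control clone 1, 4 or 7 or Neil2 clone 14 (edgeR FDR 0.155, 0.115, 0.137 and 0.169), and Mcl1 without control clone 1 or 4 (edgeR FDR 0.156 and 0.167) or Neil2 clone 1 (0.46, under the fold limit). The Apex1 call of Bcl2 was lost without control clone 1 or 4 or the first duplicate (edgeR FDR 0.142, 0.116 and 0.109). The fits for Apex1 set the summed duplicates, as 1 sample, against 3 controls and assume that this sample varies as the controls do. The EBs also differed in cell type markers: the 8 pluripotency markers summed to 1878 to 2001 CPM in controls, 2813 to 3203 in Neil1, 2258 to 3392 in Neil2 and 3370 to 3413 in Apex1 mutants, and the 4 trophoblast markers to 140 to 195 in controls against 10.3 to 43.7, 9.59 to 17.1 and 20.4 to 21.5. Heart and mesoderm markers were called lower for 3 of 5 in Neil1, 2 of 5 in Neil2 and 2 of 5 in Apex1, endoderm markers for 0, 0 and 6 of 7, and neural markers were called higher for 4 of 6, 3 of 6 and 2 of 7 and lower for 1 in each mutant. Of 3 neural crest markers, 1 was called higher and 2 lower in Neil1, and 1 lower in Neil2 and in Apex1. The part of these markers in the member results was not tested.

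**Figure D3:**
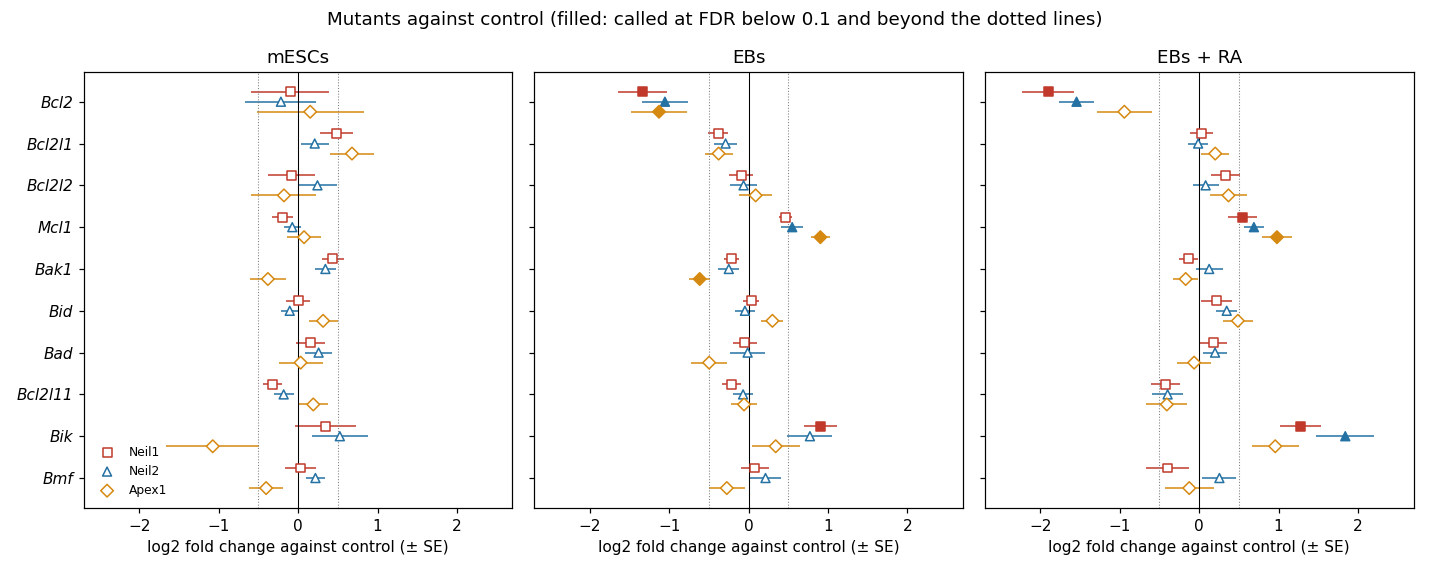
Log2 fold change against control (± SE) of each member in Neil1, Neil2 and Apex1 mutants at each stage, filled where called at an FDR below 0.1 and beyond the dotted lines at 0.5. Bcl2 lies to the left and Mcl1 and Bik to the right in EBs + RA, where Bcl2 is at -1.90 for Neil1 and -1.54 for Neil2.

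In EBs + RA, the stage at which control cells had most Bcl2, Bcl2 was again lower in Neil1 and Neil2 mutants. It was at 13.7, 12.97 and 8.91 CPM in controls, at 4.09, 3.43 and 1.90 in Neil1 mutants, at 4.09, 4.02 and 3.93 in Neil2 mutants and at 5.95 and 6.15 in the Apex1 duplicates. Each mutant library lay under the lowest control, with the Neil1 and Neil2 libraries lowest. Such separation below control was seen for 27.9%, 26.4% and 28.3% of genes in the 3 mutants. Bcl2 fell by a log2 fold change of -1.90 ± 0.33 in Neil1 mutants (edgeR FDR 0.00365) and of -1.54 ± 0.22 in Neil2 mutants (edgeR FDR 0.00194). In Apex1 the difference of -0.94 ± 0.34 was not called (edgeR FDR 0.181), but it was without control clone 7 (-1.11, edgeR FDR 0.00048) and by DESeq2 (-0.94, FDR 0.0801).

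Mcl1 was called as higher in all 3 mutants given RA. Control clones 1, 4 and 7 were at 298, 273 and 352 CPM, Neil1 mutants at 526, 462 and 354, Neil2 mutants at 467, 523 and 479, and both Apex1 duplicates at 596. No mutant library overlapped the controls (24.4%, 22.1% and 24.4% of genes lay above them in Neil1, Neil2 and Apex1), but Neil1 clone 11 exceeded control clone 7 by only a few CPM. The log2 fold changes were 0.55 ± 0.18 (Neil1, edgeR FDR 0.0433), 0.69 ± 0.13 (Neil2, edgeR FDR 0.0052) and 0.98 ± 0.18 (Apex1, edgeR FDR 0.0441).

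Bik rose in Neil1 and Neil2 mutants. It was at 5.09, 6.75 and 6.99 CPM in control EBs + RA, at 17.6, 16.9 and 10.9 in Neil1 mutants, at 10.7, 24.04 and 32.0 in Neil2 mutants and at 12.5 and 11.5 in the Apex1 duplicates. All mutant libraries were above all controls, and the Neil2 clones were spread over a wide range. The log2 fold change was 1.28 ± 0.25 in Neil1 (edgeR FDR 0.0067) and 1.84 ± 0.37 in Neil2 mutants (edgeR FDR 0.0072). In Apex1 the difference of 0.96 ± 0.30 was not called (edgeR FDR 0.131), with both duplicates above all controls.

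Bak1 was not called in any mutant given RA. Controls were at 67.5, 69.7 and 67.3 CPM, Neil1 mutants at 63.7, 60.7 and 60.8, Neil2 mutants at 54.8, 75.3 and 90.3 and the Apex1 duplicates at 64.1 and 55.7. The Neil1 and Apex1 values lay just below the controls and the Neil2 clones on both sides of them. The differences were -0.13 ± 0.11 (edgeR FDR 0.373), 0.13 ± 0.17 (edgeR FDR 0.598) and -0.17 ± 0.16 (edgeR FDR 0.58).

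Thus 3 of 10 members were called in Neil1 EBs + RA, against 41.1% of tested genes, 3 in Neil2 (34.9%) and 1 in Apex1 (8.34%). The shares are again near the background, and the members' median log2 fold changes of 0.11, 0.16 and 0.07 stood beside 0.0015, 0.0047 and -0.02 over all genes. Among the remaining members, Bcl2l11 was at 77.2, 80.0 and 53.7 CPM in controls, and 41.5 to 58.8 in the 8 mutant libraries, which overlapped the lowest control. Bcl2l1 was at 77.9 to 96.2 CPM in controls and 76.1 to 104 in mutants, Bmf at 45.7 to 75.3 and 29.8 to 79.0, Bid at 21.4 to 23.7 and 18.99 to 31.4, Bad at 18.9 to 22.9 and 16.2 to 27.7, and Bcl2l2 at 11.1 to 12.0 and 11.0 to 16.5. With the mutants pooled, each of these ranges overlapped that of the controls. Bcl2l2 nevertheless lay above all controls in Neil1 and in Apex1 mutants, and Bid in Neil2 and in Apex1 mutants. Of genes averaging 10 counts or more, 24.4% lay above all controls in Neil1, 22.1% in Neil2 and 24.4% in Apex1. Bid in Neil2 mutants passed the FDR limit (0.0738) with a difference of 0.35, under the fold limit.

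The Bcl2 and Bik calls in Neil1 and Neil2 EBs + RA, and that of Mcl1 in Neil2, held without any 1 library. Mcl1 in Neil1 was lost without control clone 1 or 4 or Neil1 clone 7 or 9 (0.42 to 0.52, edgeR FDR 0.109 to 0.157), and in Apex1 without control clone 4 (0.90, edgeR FDR 0.119). Cell type markers differed here too. The 7 neural markers summed to 287 to 487 CPM in controls and to 45.3 to 58.4 in Neil1, 44.1 to 62.3 in Neil2 and 83.8 to 88.0 in Apex1 mutants. All 7 were called lower in Neil1 and in Neil2 mutants and 6 of 7 in Apex1, with Dcx below 1 CPM in every Neil1 library and Neurod1 below 1 CPM in every Neil2 and Apex1 library. The neural sum was also 457 to 477 CPM in undifferentiated control mESCs, and 134 to 148 in control EBs, so it does not measure neural cells alone. The 8 pluripotency markers summed to 94.3 to 146 CPM in controls and to 309 to 406, 247 to 614 and 600.2 to 758.5 in the mutants, and the 5 macrophage markers to 14.1 to 21.7 in controls, 42.1 to 94.5 in Neil1, 27.4 to 37.4 in Neil2 and 12.7 to 14.7 in Apex1 mutants, with Ptprc, Tyrobp and Emr1 below 1 CPM in every library. Trophoblast markers summed to 15.0 to 18.9 CPM in controls, 18.5 to 199 in Neil1, 16.6 to 37.3 in Neil2 and 15.5 to 17.4 in Apex1 mutants, and were called higher for 3 of 4 in Neil1 and 2 of 4 in Neil2 mutants, and lower for 2 of 4 in Apex1. Of the other lists, neural crest markers were called lower for 3 of 5 in each mutant (and higher for 1 in Neil2), markers of heart and mesoderm higher for 3 of 4 in Neil1, 4 of 5 in Neil2 and 3 of 5 in Apex1, and endoderm markers higher for 4 of 7 in Neil1 and for 0 in the other two. How far these markers account for the levels of Bcl2, Mcl1 and Bik was not tested.

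Neil1 and Neil2 mutants were also compared directly. No gene was called at any stage by edgeR (0% each), with 915, 735 and 1608 genes at an unadjusted p under 0.05 in mESCs, EBs and EBs + RA, and 3, 1 and 111 called by DESeq2. The Bcl2 difference, Neil1 minus Neil2, was 0.11 ± 0.40 in mESCs, -0.27 ± 0.39 in EBs and -0.33 ± 0.31 in EBs + RA. For Bik in EBs + RA it was -0.53 ± 0.37. These errors leave room for differences of the size of the values themselves, so that a difference between both mutants was not detectable here and similarity was not shown.

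Whether a mutant's difference from control changed between stages was tested by interaction terms, called at an FDR below 0.1. Between EBs and EBs + RA no member passed in Neil1 (32.2% of tested genes passed), Neil2 (15.4%) or Apex1 mutants (3.82%). With the clone, shared by both stages, as a block, Bcl2l1 passed in Neil1 (0.43, FDR 0.0412) and Bik in Neil2 mutants (0.97, FDR 0.0276), both in edgeR. For Bcl2 the terms were -0.55 ± 0.46, -0.51 ± 0.35 and 0.17 ± 0.45, so a change of the Bcl2 difference between EBs and EBs + RA was not shown in any mutant.

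Between mESCs and EBs the term passed for 3 of 10 members in Neil1 mutants (10.4% of tested genes): Mcl1 (0.68 ± 0.14, edgeR FDR 0.0126), Bak1 (-0.63 ± 0.17, edgeR FDR 0.0372) and Bcl2l1 (-0.85 ± 0.25, edgeR FDR 0.0651). In Neil2 mutants it passed for 2 (10.4% of tested genes), Mcl1 (0.60 ± 0.17, edgeR FDR 0.0533) and Bak1 (-0.61 ± 0.19, edgeR FDR 0.0709), and in Apex1 for none (4.95%). The log2 fold change of Mcl1 against control went from -0.20 in mESCs to 0.46 in EBs for Neil1 and from -0.07 to 0.55 for Neil2, and that of Bak1 from 0.44 to -0.21 and from 0.34 to -0.25. With the clone as a block both Neil2 terms were lost (Mcl1 0.60, edgeR FDR 0.163, and Bak1 -0.63, edgeR FDR 0.112). The Mcl1 and Bak1 terms in Neil1 held without any 1 of the 12 libraries. Bcl2l1 was lost without 7 of them (the mESC libraries of control clones 1 and 4 and Neil1 clone 9, and the EB libraries of control clones 4 and 7 and Neil1 clones 7 and 9; edgeR FDR 0.107 to 0.148). In Neil2 the Mcl1 term was lost without 5 (mESCs of control clone 4 and Neil2 clones 11 and 14, EBs of control clones 1 and 4; edgeR FDR 0.105 to 0.140) and that of Bak1 without 7 (mESCs of control clones 1 and 4 and Neil2 clones 11 and 14, EBs of all 3 control clones; edgeR FDR 0.106 to 0.175).

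The levels of the 4 death-opposing genes were also set against each other within each library, as shares of their summed RPKM. These shares are built from the levels above and are given as descriptions. Mcl1 made up 94.8% ± 0.550 (SD, n = 3) of the sum in control mESCs, 87.8% ± 1.20 in EBs and 79.8% ± 1.23 in EBs + RA, while Bcl2l1 went from 4.04% to 9.96% and 16.3%, and Bcl2 from 0.0473% to 0.331% and 1.53%. In the mutants the Mcl1 share moved little between mESCs and EBs. Its means were 92.4% and 92.7% in Neil1, 93.7% and 92.6% in Neil2, and 93.0% and 94.35% in Apex1 mutants. From EBs to EBs + RA it fell in the mutants too, to means of 85.0%, 87.0% and 87.4%. In EBs + RA Mcl1 was at 87.2%, 87.2% and 80.6% in Neil1 clones 7, 9 and 11, at 87.0%, 88.5% and 85.5% in Neil2 clones 1, 11 and 14 and at 86.7% and 88.1% in the Apex1 duplicates, against 80.3%, 78.4% and 80.7% in controls. Neil1 clone 11 alone lay within the control range. The Bcl2 share was 0.284% in Neil1, 0.346% in Neil2 and 0.430% in Apex1 mutants (means), with no library above 0.440% and no control below 0.988%.

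**Figure D4:**
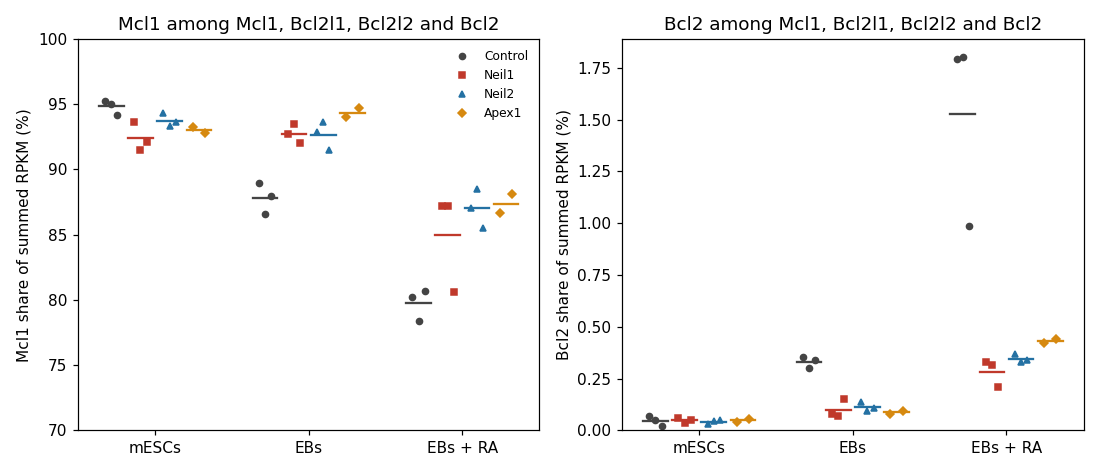
Share of the summed RPKM of Mcl1, Bcl2l1, Bcl2l2 and Bcl2 that was Mcl1 (left, axis from 70%) and Bcl2 (right, axis from 0%), 1 point per library and a bar at the group mean. Control libraries fall to 78.4 to 80.7% Mcl1 in EBs + RA, and mutant libraries lie at 80.6 to 88.5%.

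Other genes of the pathway were followed as 3 lists: further BCL2 family genes, genes that act after the family (caspases, their partners and inhibitors, mitochondrial channels), and known regulators of members. In mESCs none of their 9, 20 and 11 tested genes was called in any mutant. In EBs the Neil1 mutants had 3 family genes up and 1 down of 8, 1 downstream gene down of 20, and 1 regulator up and 2 down of 11. The Neil2 mutants had 3 of 9 family genes up, and 1 downstream gene of 20 and 1 regulator of 11 down, and the Apex1 mutant had 3 up and 1 down of 9, 1 down of 20, and 1 up and 2 down of 11. Casp8, the initiator caspase of death receptors, fell in Neil1 (-0.80 ± 0.20, edgeR FDR 0.0133) and Neil2 EBs (-0.98 ± 0.20, edgeR FDR 0.0145), from 6.38 to 6.58 CPM in controls to 3.06 to 4.47 and 3.22 to 3.31. Trib1, a pseudokinase of the Tribbles family, fell in both as well (-0.86 and -0.97), and Bcl2l14 rose in all 3 mutants (0.90, 0.84 and 0.75).

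In EBs + RA the Neil1 mutants had 4 family genes up and 2 down of 8, 3 downstream genes up and 4 down of 20, and 2 regulators up and 1 down of 11. The Neil2 mutants had 5 up and 2 down of 8, 2 and 2 of 20, and 1 and 1 of 11, and the Apex1 mutant 2 up of 9, 1 up of 20, and 1 up and 1 down of 11. Pmaip1, which encodes the BH3-only protein NOXA, a partner of MCL1 and a target of p53, was at 8.37 to 11.4 CPM in controls, 30.4 to 46.0 in Neil1, 25.8 to 34.8 in Neil2 and 32.5 to 33.1 in Apex1 mutants. No mutant library came near the controls, and the log2 fold changes were 1.97 ± 0.21 (edgeR FDR 0.00048), 1.65 ± 0.18 (edgeR FDR 0.000723) and 1.74 ± 0.23 (edgeR FDR 0.0236). In controls Pmaip1 fell by 2.62 on the log2 scale from EBs to EBs + RA (edgeR FDR 3.06e-06), the interaction with RA passing in Neil1 (2.06 ± 0.22, edgeR FDR 6.48e-05), Neil2 (1.89 ± 0.22, edgeR FDR 0.000213) and Apex1 (1.12 ± 0.25, edgeR FDR 0.0631).

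Bok, a relative of Bak1, fell in Neil1 and Neil2 EBs + RA (log2 fold change -1.89 ± 0.25, edgeR FDR 0.00117, and -1.47 ± 0.24, edgeR FDR 0.00309). Of the regulators, Ddit3 (CHOP), a transcription factor of the unfolded protein response that represses Bcl2, rose in Neil1 mutants (1.75 ± 0.16, edgeR FDR 0.000281), and Foxo3, an activator of Bcl2l11, in Apex1 EBs (0.82 ± 0.11, edgeR FDR 0.00253) and EBs + RA (1.12 ± 0.21, edgeR FDR 0.0430), where Bbc3 (PUMA) rose too (1.07 ± 0.22, edgeR FDR 0.0536). Bcl2l14 rose in Neil2 EBs + RA (1.61 ± 0.31, edgeR FDR 0.00634). Only the largest called changes were named, so a gene named for 1 mutant may have differed in the others. Bbc3 also exceeded all EBs + RA controls (27.75 to 38.67 CPM) in Neil1 (52.52 to 61.32) and Neil2 (40.68 to 50.85). Bcl2l14 did so in Neil1 (3.39 to 6.19, controls 1.24 to 2.58) and Apex1 (4.21 to 4.71). Ddit3 did so in Neil2 (17.61 to 41.15) but not in Apex1. Foxo3 did so in Neil1 (109.1 to 124.5) and Neil2 (95.62 to 104.2). In controls, EBs against mESCs had 1 family gene up and 1 down of 9, 4 downstream genes up of 20, and 1 regulator up and 1 down of 11, led by Casp8 (1.77) and Trib1 (1.52). Control EBs + RA against EBs had 2 of 8 family genes down, 2 downstream genes up and 2 down of 20, and 1 regulator up and 2 down of 11, with Casp6 (0.91) among those that rose.

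Across all 33 libraries the genes whose log2 CPM followed Bcl2 most closely, among 11227 genes averaging 5 CPM or more, were Fam115a (Pearson r = 0.964), Hoxd3 (0.960), Ssbp3 (0.959), Zfp768 (0.956) and Antxr2 (0.956). Within the family Bcl2l11 (0.827), Bmf (0.729) and Bcl2l1 (0.715) followed it and Mcl1 (-0.712) ran opposite. Pou5f1, the pluripotency factor OCT4, was at -0.868. Neural markers went both ways, with Dcx at 0.834, Nes at 0.718 and Pax6 at 0.555, and Elavl3 at -0.198, Tubb3 at -0.461 and Stmn2 at -0.781. For Bak1 the closest were Maf1 (0.814), Ap1s1 (0.806), Mfsd8 (0.774), Nsmce1 (0.760) and Ube2m (0.758), a looser likeness than that of Bcl2. The libraries share clones, controls and the 3 stages (mESCs, EBs and EBs + RA), so these values describe the libraries only.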

How the data were processed

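Poly(A) RNA of 33 libraries (33 samples, 51 sequencing cycles) had been aligned by the authors to mm9 (NCBIM37) with TopHat2 2.0.9 and Bowtie2 2.1.0 and counted per gene with HTSeq 0.5.4, and the deposited files hold raw counts. HTSeq sets reads aside that fall on 2 genes or align to several places: 11.4 to 19.9% of reads were not unique, 5.86 to 8.85% fell on no gene and 1.89 to 2.88% were ambiguous, and these stayed out of library sizes. Groups came from the labels. Genes were filtered by filterByExpr and tested, per stage and mutant against control, between stages in controls, between mutants and as interactions, by edgeR 4.0.16 (quasi-likelihood test, TMM, R 4.3.3) with Benjamini-Hochberg adjustment over all tested genes, with limits of 0.1 on the FDR and 0.5 on the size of the log2 fold change (FDR alone for interactions). The Apex1 duplicates were summed to 1 sample. DESeq2 1.42.0, RLE size factors, other filters, all genotypes in 1 fit, an FDR below 0.05, a replicate block and leaving out each library were alternatives. The chi-square per degree of freedom between libraries of a group was 5.58 to 127 over 30 pairs, more than sampling noise gives. The lowest value was that of the Apex1 duplicates in mESCs. CPM used TMM library sizes and RPKM the merged exon length. An exact permutation test of 3 against 3 cannot go below p = 0.1 and was not used.

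The members and all gene lists were chosen with earlier results of these data known. All members were named, with fold changes for those called and for Bcl2 and Bak1 in every mutant comparison, up to 4 called pathway genes per comparison by size of change (mean log2 CPM of at least 2), and the 5 genes most like Bcl2 and Bak1. The values of 1 pathway gene that this rule names are not reported here. The fits were tested on simulated data. EBs and EBs + RA of a clone deviated together (r = 0.277 to 0.357 in control, 0.192 to 0.278 in Neil1 and 0.368 to 0.439 in Neil2 clones, over 14195 genes), whereas mESCs and EBs of a clone did not in every case (-0.414 to 0.175), and the clone, given in the labels, pairs the stages.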

Additional observations from a re-analysis of the deposited data

Results flagged for a closer look

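A difference from control that changed between mESCs and EBs, by a test of the interaction term itself in edgeR, was found for 3 members in Neil1 mutants: Bcl2l1 (-0.85, SE 0.25, FDR 0.0651), Mcl1 (0.68, SE 0.14, FDR 0.0126) and Bak1 (-0.63, SE 0.17, FDR 0.0372). In Neil2 mutants it was found for Mcl1 (0.60, SE 0.17, FDR 0.0533) and Bak1 (-0.61, SE 0.19, FDR 0.0709). These values are log2 fold changes against control in EBs minus those in mESCs. The mutants share their control libraries, so that the terms for Neil1 and Neil2 are not independent. No group had enough samples for a test of single outlying libraries.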

How the results depend on the processing

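Under settings other than leaving out a library, 236 refitted fold changes of members kept their direction and their side of the limits, 6 lost their call, 3 gained one and 1 reversed. When each library was left out in turn, 215 kept both, 45 lost their call, 2 gained one and 6 reversed. With a replicate block the members called went from 2 to 0 in Neil2 EBs (Bcl2 FDR 0.1001, Mcl1 0.1098) and in the Neil2 differentiation interaction, and from 0 to 1 in the RA interactions of Neil1 and Neil2. Replicate numbers join different clones in the mutant comparisons, where only Neil1 and control EBs + RA deviated together (r = 0.138 to 0.211), and in Neil1 and Neil2 the block changed no other call of members there. For Apex1, with the duplicates as 2 samples, 1 member was called in mESCs and 3 in EBs + RA, and with the block 2 and 5. DESeq2 called 3 in Apex1 EBs + RA and 2 in its differentiation interaction, and no filter called 2 in EBs + RA. Bcl2 in Apex1 EBs was not called with all genotypes in 1 fit (FDR 0.200) or at an FDR below 0.05.

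Leaving out each library gave 0 to 2, 2 to 3 and 2 to 4 members called in Neil1 mESCs, EBs and EBs + RA, 0, 0 to 2 and 3 to 5 in Neil2, 0 to 2, 2 to 4 and 0 to 5 in Apex1, 2 to 4 and 4 to 6 at the control steps, 0 to 1, 0 to 3 and 0 to 1 in the RA interactions and 2 to 3, 0 to 3 and 0 to 3 in the differentiation interactions (Neil1, Neil2, Apex1). Without control clone 7, genes called rose from 0 to 5621 in Apex1 mESCs, from 286 to 1494 in Neil2 mESCs and from 1400 to 5435 in Apex1 EBs + RA. Over the settings that kept all libraries, genes called ranged from 0 to 1044 in Neil1 mESCs (283 as reported), from 22 to 819 in Neil2 mESCs (286), from 0 to 6140, 1499 to 4257 and 568 to 5602 in Apex1 mESCs, EBs and EBs + RA (0, 2796 and 1400), and the block called 982 genes in the Neil2 differentiation interaction (1703) and 4163 in its RA interaction (2581). DESeq2 called 1772 and 1189 in those of Apex1 (852 and 662).

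Fold changes near 0 reversed: Bcl2 in mESCs ranged from -0.44 to 0.25 in Neil1 (0.25 without control clone 1, 0.13 without Neil1 clone 9), from -0.55 to 0.13 in Neil2 (0.13 without control clone 1) and from -0.18 to 0.52 in Apex1 (-0.18 without control clone 7, -0.03 without the second duplicate, -0.19 with the duplicates as 2 samples and the block), and Bak1 in Neil2 EBs + RA from -0.044 (without Neil2 clone 14) to 0.30. The low counts of Bcl2 limit what mESCs can show. The causes were not tested.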
